A study of Homo sapiens with 20 samples.

Results

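Cultures of HCT-116, a long-established line from a human colorectal carcinoma, were compared after 3 h in 20 µM MG132 with cultures taken at the moment that treatment began. The comparison uses 8 of the series' 20 samples, the 4 MG132 libraries and the 4 G2 libraries, chosen by their labels, and all 39918 genes and 1174 repeat subfamilies of the count table. Both groups had been held in 2 mM thymidine for 16 h and released for 7 h to bring them into G2. The G2 group was harvested at that point with no drug, so 3 h of cell cycle time lie within the contrast, and the drug and that time cannot be told apart. A group held for 3 h with solvent alone was not analysed here. The other 12 samples were untreated asynchronous cells, synchronised cells given 100 nM bortezomib for 3 h, and synchronised cells given MG132 together with 50 µg/ml α-amanitin, an inhibitor of RNA polymerase II. Total RNA depleted of ribosomal RNA was sequenced. The labels number the replicates without saying whether each was a culture of its own. All 20 libraries were fitted together, and the groups share an estimate of the spread. The p-values therefore rest on the variation within the groups of all 20 libraries, part or all of which may be technical.

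The proteasome degrades proteins that carry ubiquitin chains, and MG132 is a peptide aldehyde that blocks its catalytic sites. Cells in which damaged proteins accumulate release the heat shock factor HSF1 from chaperones, and HSF1 then drives genes for chaperones of the HSP70, HSP40 and small heat shock families. Kinases that phosphorylate the initiation factor eIF2α favour translation of the transcription factor ATF4, which drives genes for amino acid supply and for the stress factors CHOP and ATF3. NRF2, a short-lived factor that the proteasome removes in unstressed cells, drives antioxidant genes. HCT-116 cells carry an activating mutation of β-catenin, the transcriptional effector of Wnt signalling that is itself degraded by the proteasome, and have wild-type p53.

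The 8 libraries held 27347163 to 39710457 counts. Levels below are counts per 1000000 counts (CPM) with library sizes adjusted by TMM, computed from the deposited counts and not divided by gene length. The epithelial markers summed to 3218 to 5652 CPM in the G2 libraries and 4192 to 5978 in the MG132 libraries, with CEACAM5 and CEACAM6 at no more than 3 counts in all 8. Fibroblast markers summed to 5.69 to 11.8 CPM, with 6 of 10 (COL1A2, DCN, LUM, PDGFRA, FAP and POSTN) at no more than 3 counts in all 8, and leukocyte markers to 2.85 to 6.89 CPM, with 3 of 9 (PTPRC, CD3E and NKG7) at that floor. These are bulk samples, in which fewer cells of a type and less RNA per cell cannot be told apart. Some libraries stood apart. The level of a gene relative to the other libraries rose with the GC content of its transcript by 0.733 on the log2 scale per 10 percentage points in MG132 replicate 4 and by 0.359 in G2 replicate 2, and fell by 0.409 in MG132 replicate 2. These 3 and asynchronous replicate 3 (0.502) are called the 4 GC-skewed libraries below. The share of counts on protein-coding genes was 68.3% in G2 replicate 1 and 75.5% to 82.2% in the other 7. A letter in the sample codes, whose meaning the labels do not give, was O for G2 replicates 2 to 4 and MG132 replicates 3 and 4, L for G2 replicate 1 and MG132 replicate 2, and K for MG132 replicate 1.

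After MG132, 191 genes were higher and 204 lower among 18959 tested, at an adjusted p under 0.05 in edgeR's quasi-likelihood test with Benjamini-Hochberg adjustment, which is the test behind every adjusted p given here unless another tool is named. That is 1.01% of the tested genes higher and 1.08% lower, or 2.08% in either direction, and these shares are the background for every count below. The rises were the larger changes, with 31 genes at least 8-fold higher against 2 at least 8-fold lower, and medians of 1.51 and -1.21 (log2) over the called genes. Over all tested genes the median was -0.03. The libraries of the 2 groups did not overlap for 175 of the 191 and 201 of the 204 called genes, while over all tested genes 2.07% had every MG132 library above every G2 library and 4.45% had every MG132 library below. Among the higher genes 149 were protein coding and 17 long non-coding RNAs. Among the lower genes 118 were protein coding and 73 long non-coding.

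**Figure D1:**
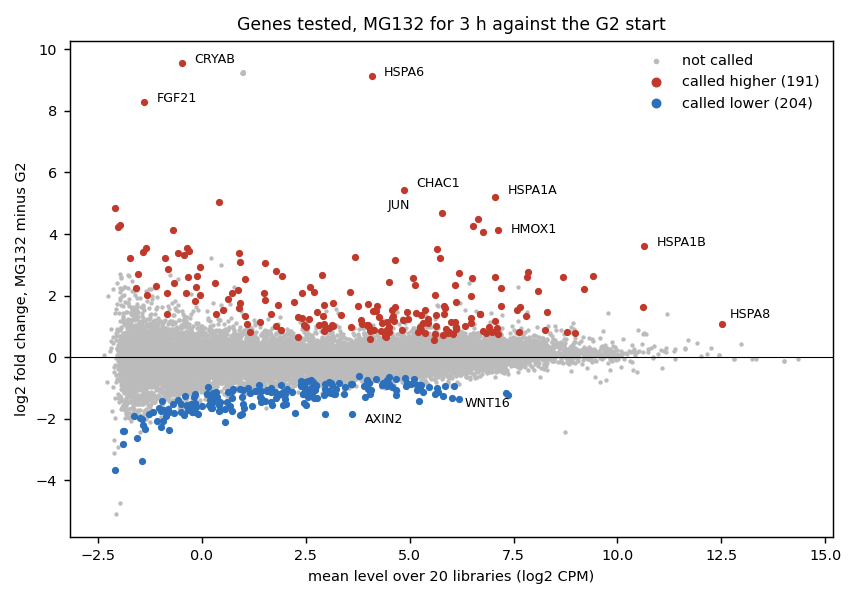
Each point is 1 tested gene, with its mean level over the 20 libraries (log2 CPM) on the x axis and its log2 fold change, MG132 minus G2, on the y axis, where red genes were called higher and blue genes lower. HSPA6 and CRYAB lie highest among the 191 higher genes, and the 204 lower genes show smaller changes at lower mean levels.

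The counts depended on which libraries were used. All 20 libraries were in the fit that gave 191 and 204. With the 8 libraries of the 2 groups alone the counts were 81 higher and 5 lower. Without MG132 replicate 4 they were 318 higher and 355 lower, and leaving out other single libraries gave 119 to 179 higher and 74 to 165 lower. With only the 5 libraries of letter O from the 2 groups, fitted with the other letter O libraries and 3 residual degrees of freedom, 15 genes were higher and 0 lower, and 84 of the 96 called genes named here lost their call while 0 changed sign. Within letter O the log2 fold changes were 9.01 for HSPA6 (adjusted p = 0.00343), 3.73 for HSPA1B (0.0281), 5.78 for CHAC1 (0.0151), 4.50 for HMOX1 (0.0471) and 5.07 for JUN (0.0151), and -1.68 for AXIN2 (0.31), -1.39 for SOX4 (0.524) and -1.45 for WNT16 (0.713). With only the 8 libraries of the 2 groups in the fit, 59 of the 96 calls were lost, those of HSPH1, HSPA8, DNAJB4, DNAJB6, FKBP4, GABARAPL1, MAP1LC3B, ATF4, JDP2, VEGFA, TRIB3, TRIB1, ASNS, PSAT1, PHGDH, SLC7A1, CARS1, SRXN1, HSPA5, XBP1, NR4A1, JUNB, BTG1, SPRY1, SPRY2, TOB1, DUSP7, KLF2, AREG, HBEGF, CDKN1A, GADD45B, TNFRSF10B, AEN, PHLDA3, AXIN2, SOX9, DKK1, WNT16, BAMBI, TGIF1, SMAD6, CDKN1B, CDC6, CLK1, HOXB4, HOXB6, IMP3, GEMIN6, HPS6, MFSD5, PDE4B, THBS1, MICB, ULBP1, ARID5B, FZD2, HOXA13 and IFRD1. Mitochondrial mRNA scaling lost 43 of the 96, and an offset for each gene's GC content and length in each library lost 4, those of DNAJB6, XBP1, BTG1 and TGIF1. With that offset and the replicate block 5 were lost, the same 4 and PSAT1. Without the 4 GC-skewed libraries the calls of HSPA8, MAP1LC3B, ATF4, JDP2, VEGFA, TRIB3, PSAT1, PHGDH, XBP1, FOS, JUNB, BTG1, SPRY1, AREG, HBEGF, CDKN1A, PHLDA3, SMAD6, IMP3, GEMIN6, CCN1 and MICB were lost. With a term for the code letter those of HSPH1, DNAJB4, DNAJB6, FKBP4, PSAT1, PHGDH, SLC7A1, HSPA5, JUNB, SPRY2, TOB1, PHLDA3, DKK1, SMAD6, CDKN1B, CDC6, CLK1, IMP3, GEMIN6, HPS6, PDE4B, CCN1, THBS1, MICB, ARID5B and HOXA13 were lost.

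HSPA6 (ENSG00000173110.8, chr1:161524540-161526910, plus strand, build hg38), an HSP70 chaperone that is nearly silent without stress, stood at 0.0367, 0.182, 0.123 and 0.159 CPM in G2 replicates 1 to 4. In MG132 replicates 1 to 4 it stood at 91.3, 47.0, 88.0 and 76.0 CPM. The groups are far apart, and the log2 fold change was 9.14 (SE 0.48, adjusted p = 6.93e-10). CRYAB (chr11:111908565-111923722), the small heat shock protein αB-crystallin, had 0 counts in all 4 G2 libraries and 3.87, 2.37, 3.84 and 2.06 CPM in the MG132 libraries. Against a floor of 3 counts over the G2 group it was at least 138-fold higher (adjusted p = 4.25e-05).

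The inducible HSP70 pair lies side by side on chromosome 6, and the 2 genes encode nearly the same protein, so the split of reads between them is uncertain. HSPA1A (chr6:31815464-31817946) rose from 7.68, 10.6, 23.3 and 8.47 CPM to 576, 195, 437 and 638 CPM, a log2 fold change of 5.21 (SE 0.44, adjusted p = 4.15e-07). HSPA1B rose from 310, 448, 320 and 344 CPM to 4094, 3618, 4094 and 5779 CPM, a log2 fold change of 3.63 (SE 0.30, adjusted p = 4.15e-07). In both, every MG132 library lies above every G2 library. HSPA8, the constitutive HSP70, rose 2.11-fold (adjusted p = 0.0267), and HSPH1, an HSP110 that exchanges the nucleotide of HSP70, rose 4.69-fold (adjusted p = 0.0307). HSPH1 was at 1331, 1609 and 1362 CPM in MG132 replicates 1 to 3 but at 198 CPM in replicate 4, inside the G2 range of 83.1 to 325. Both calls were fragile. HSPA8 lost its call without G2 replicate 1, 3 or 4 or MG132 replicate 2 or 3 (highest adjusted p 0.0982), and HSPH1 without any single library but MG132 replicate 4 (highest adjusted p 0.0998). Of 13 HSP70 and HSP110 chaperones tested, 5 rose and 0 fell, with a median log2 fold change of 0.57.

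J-domain proteins deliver clients to HSP70, and 4 of 19 rose with 0 falling (median 0.41). DNAJB1, the stress-inducible HSP40, rose from 324, 305, 238 and 247 CPM to 1685, 1135, 1783 and 2315 CPM (log2 fold change 2.64, SE 0.24, adjusted p = 1.20e-06). DNAJA4 rose 4.70-fold. DNAJB4 rose 5.13-fold, from 17.4 to 37.5 CPM in the G2 libraries to 142, 318 and 165 CPM in MG132 replicates 1 to 3, with replicate 4 at 31.4 CPM inside the G2 range. DNAJB6 rose 1.68-fold, from 106 to 115 CPM to 140 to 219 CPM, and lost its call without any single library except MG132 replicates 2 and 4 (highest adjusted p 0.0854).

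A further list of 19 genes mixed nucleotide exchange factors and partners of HSP70 with other stress genes. Small heat shock proteins, SERPINH1 and ZFAND2A were among the latter. In this mixed list 5 genes rose and 0 fell (median 0.22). The first was ZFAND2A (AIRAP), which associates with the proteasome under stress, and it went from 18.2, 16.8, 11.3 and 13.0 CPM to 299, 412, 281 and 352 CPM (log2 fold change 4.50, SE 0.31, adjusted p = 3.50e-08). BAG3, which links HSP70 to selective autophagy, went from 80.8 to 96.2 CPM to 452 to 642 CPM, a log2 fold change of 2.61 (SE 0.19, adjusted p = 6.12e-08). SERPINH1, the collagen chaperone HSP47, rose 6.13-fold and HSPB1, the small heat shock protein HSP27, 4.39-fold. CRYAB was the fifth. All 5 kept their call in every fit that left out 1 library.

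Of 17 members of the HSP90 system 1 rose and 0 fell (median 0.30). FKBP4, an HSP90 co-chaperone, rose 1.76-fold and lost its call without G2 replicate 1, 3 or 4 or MG132 replicate 3 or 4 (highest adjusted p 0.107). HSP90AA1, the inducible HSP90, was at 1607, 469, 1793 and 1694 CPM in G2 and at 4214, 6078, 3947 and 597 CPM in MG132. Its levels in MG132 replicates 1 to 3 lie above every G2 library and replicate 4 lies low (adjusted p = 0.262). Without MG132 replicate 4 the log2 fold change was 1.77 (adjusted p = 0.0383), the only 1 of 22 alternative fits that called HSP90AA1. That fit kept G2 replicate 2, also GC-skewed, where HSP90AA1 was at 469 CPM. DNAJA1, another HSP40, had the same shape with 707, 1254, 835 and 117 CPM against 241 to 385 CPM (adjusted p = 0.252, and 0.00502 without MG132 replicate 4). None of 16 chaperonin genes was called (median 0.19, log2 fold changes from -0.51 to 0.74). At an unadjusted p under 0.05 there were 1 higher and 1 lower, DESeq2 called 0, and without MG132 replicate 4 the count was 2. Without the 4 GC-skewed libraries 0 of the 16 were called, and 0 with the GC and length offset.

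The heat shock element, the sequence that HSF1 trimers bind, was searched as GAA, TTC and GAA with 2 free bases between each, and in its other phase as TTC, GAA and TTC, which is the same site read on the opposite strand, from 250 bases before to 50 after the RefSeq gene start. It was present in 4 of the 125 called-higher genes with a promoter in the RefSeq table (3.20%), in 0.348% of the 11783 tested genes with one and in 0.487% of all 27305 promoters. Of the 121 called-lower genes with a promoter, 0 had it. DNAJB1, BAG3, HSPB1 and ZFAND2A, which rose and have a promoter in the table, had no match. HSPA1A and HSPA1B were not among the matches either. Uncalled genes with a match included DNAJA1, CHORDC1 and GAS5. Among the called genes with a match, the calls of HSPA8 and DNAJB6 were fragile, as given above. The stretches around the 4 matches are shown because they sit at genes whose levels are described above, with the match in capitals and each printed 5′ to 3′ on the gene's strand (RefSeq, GRCh38.p14). HSPA6 is at chr1:161524446-161524498 on the plus strand, HSPA8 at chr11:123062159-123062251 on the minus strand, SERPINH1 at chr11:75562157-75562209 on the plus strand and DNAJB6 at chr7:157336853-157336905 on the plus strand. The matches end 61, 42, 63 and 118 bases before the start, in that order.
HSPA6: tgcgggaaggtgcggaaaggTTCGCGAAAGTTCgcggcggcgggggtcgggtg
HSPA8: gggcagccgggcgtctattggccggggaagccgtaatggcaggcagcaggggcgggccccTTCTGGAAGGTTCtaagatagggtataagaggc
SERPINH1: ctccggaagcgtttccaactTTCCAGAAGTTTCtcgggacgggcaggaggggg
DNAJB6: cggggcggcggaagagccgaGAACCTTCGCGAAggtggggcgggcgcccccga
HSPA6, SERPINH1 and HSPA8 hold the TTC-first phase and DNAJB6 the GAA-first phase. A match describes these letters only and does not show that a factor was bound.

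**Figure D2:**
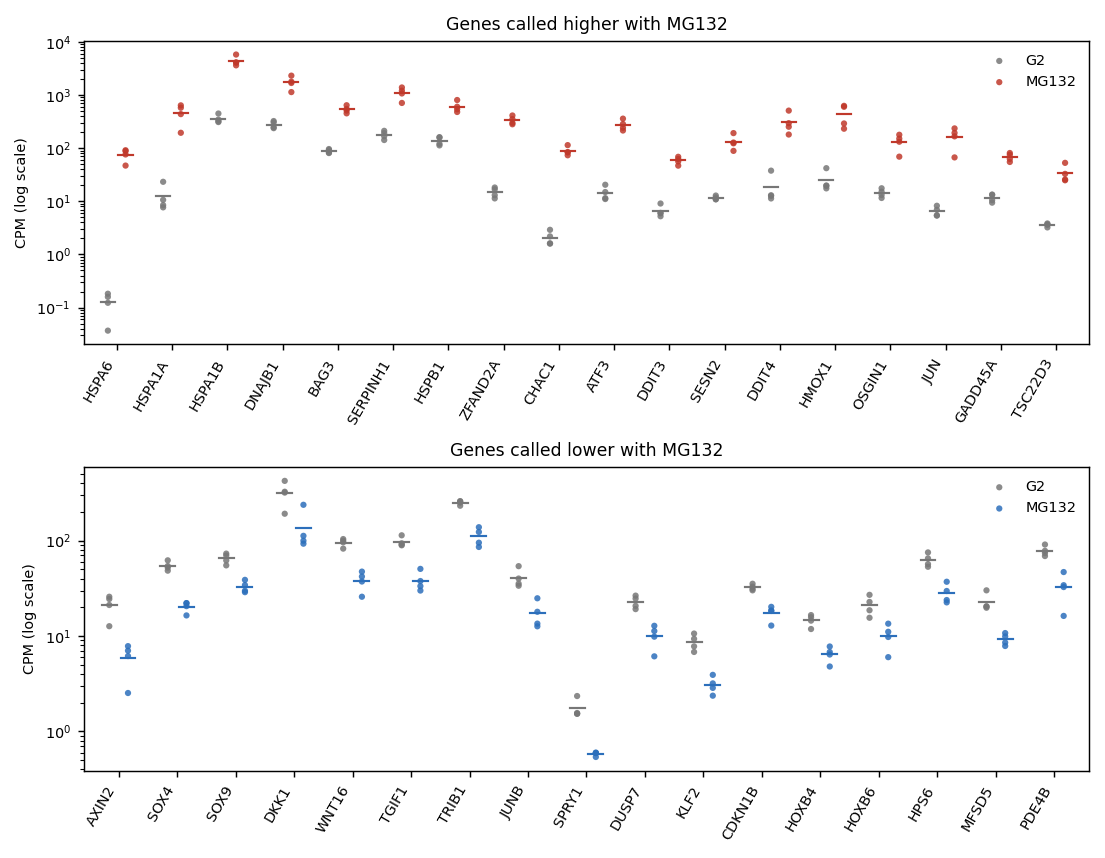
CPM on a log axis in each library for genes called higher (upper panel) and lower (lower panel) with MG132, 4 points per group and a bar at the mean, G2 in grey and MG132 in colour. In the upper panel the groups do not overlap for any gene shown, with HSPA6 the widest apart, while in the lower panel the DKK1 groups overlap and the remaining genes do not.

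The ubiquitin and autophagy genes changed at a few members. UBB, a polyubiquitin gene, stood at 625 to 1572 CPM in G2 and 1067 to 1560 CPM in MG132 (adjusted p = 0.593). GABARAPL1 and MAP1LC3B, which coat autophagosome membranes, rose 1.83-fold and 1.71-fold (adjusted p = 0.00535 and 0.0448), and the second lost its call without G2 replicate 2, 3 or 4 or MG132 replicate 1, 2 or 3 (highest adjusted p 0.156). SQSTM1, the receptor p62, was at 251 to 372 CPM and 304 to 792 CPM (adjusted p = 0.0633, and 0.0128 without MG132 replicate 2). In all, 3 of 29 ubiquitin and autophagy genes rose and 0 fell (median 0.21).

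The proteasome subunit genes, known targets of the factor NRF1 under proteasome inhibition, did not pass the test at 3 h. Of 34 subunits 0 were called in either direction, with log2 fold changes from -0.09 to 0.50, a median of 0.16 and 28 of them positive. At an unadjusted p under 0.05 there was 1 higher and 0 lower, and DESeq2 called 0 of the 34. PSMD12, a subunit of the regulatory particle, was at 183, 127, 212 and 213 CPM in G2 and 282, 356, 322 and 74.3 CPM in MG132, with replicate 4 again lowest (adjusted p = 0.716). PSMB5, the subunit with chymotrypsin-like activity, was at 192 to 343 CPM and 195 to 311 CPM, in ranges that overlap.

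The ATF4 pathway held the second set of large rises. CHAC1, an enzyme that degrades glutathione, was at 2.90, 2.18, 1.60 and 1.61 CPM in G2 and at 83.4, 73.4, 84.1 and 114 CPM in MG132 (log2 fold change 5.42, SE 0.35, adjusted p = 1.75e-08). ATF3, a repressor induced by stress, was at 20.5, 14.9, 11.0 and 11.5 CPM and then 242, 215, 284 and 359 CPM (log2 fold change 4.25, SE 0.37, adjusted p = 5.79e-07). DDIT3, which encodes CHOP, was at 9.08, 5.22, 6.04 and 5.93 CPM and then 46.8, 68.7, 62.5 and 56.3 CPM (log2 fold change 3.16, SE 0.38, adjusted p = 4.77e-05). For all 3 the MG132 libraries lie at least several-fold above the highest G2 library.

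Of 17 transcription factors, kinases and phosphatase subunits of the pathway, 5 rose and 0 fell (median 0.26). PPP1R15A, which returns eIF2α to its unphosphorylated form, rose 5.88-fold (adjusted p = 1.40e-06). ATF4 itself, which is controlled mainly by translation, rose 1.85-fold, from 223 to 259 CPM to 338 to 538 CPM, and lost its call without any single library but MG132 replicate 1 (highest adjusted p 0.109). JDP2, a bZIP repressor, rose 2.11-fold and lost its call without G2 replicate 1, 3 or 4 or MG132 replicate 1 or 3 (highest adjusted p 0.0972).

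Of 17 tested effectors 10 rose and 1 fell, with a median of 1.38, the highest of the lists examined. SESN2, which restrains mTORC1 when amino acids are short, rose from 10.9 to 12.8 CPM to 123, 88.9, 127 and 192 CPM (log2 fold change 3.52, SE 0.26, adjusted p = 6.12e-08). DDIT4, another mTORC1 inhibitor, rose from 37.7, 12.6, 13.0 and 11.3 CPM to 253, 180, 295 and 509 CPM (log2 fold change 4.05, SE 0.53, adjusted p = 0.000152). FGF21, a secreted hormone, had 0 counts in G2 and 1.26, 1.23, 1.12 and 1.49 CPM in MG132, at least 57.9-fold above the floor of 3 counts over the G2 group. The secreted proteins STC2, GDF15 and ADM2 rose 6.08-fold, 6.64-fold and 3.62-fold, and INHBE, an activin subunit, reached 0.474 to 0.929 CPM from at most 0.0520. TRIB3, a pseudokinase that dampens ATF4, rose 2.60-fold. VEGFA rose 2.01-fold at adjusted p = 0.0498 and lost its call without any single library but MG132 replicate 2 (highest adjusted p 0.142). TRIB1, the related pseudokinase, went the other way, from 232 to 259 CPM to 95.0, 138, 85.8 and 123 CPM (log2 fold change -1.18, SE 0.20, adjusted p = 0.00248), with no overlap between the groups.

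Amino acid genes rose by smaller factors. Of 19 synthesis and transport genes 5 rose and 0 fell (median 0.60). ASNS, asparagine synthetase, rose from 28.3, 31.6, 28.7 and 30.5 CPM to 60.4, 91.4, 61.1 and 69.6 CPM (log2 fold change 1.25, SE 0.19, adjusted p = 0.00106). SLC1A4, a transporter of neutral amino acids, rose 2.77-fold. PSAT1 and PHGDH of serine synthesis rose 1.71-fold and 1.69-fold and SLC7A1, the cationic amino acid transporter, 1.98-fold. These 3 calls were fragile. PSAT1 lost its call without any single library but G2 replicate 2 and MG132 replicate 4, PHGDH without G2 replicate 2, 3 or 4 or MG132 replicate 1, and SLC7A1 without any single library but MG132 replicate 2, with highest adjusted p of 0.0944, 0.0961 and 0.141. SLC7A11, the cystine importer, was at 218, 180 and 213 CPM in MG132 replicates 1 to 3 and at 21.8 CPM in replicate 4, which lies inside the G2 range (adjusted p = 0.0767, and 0.0144 without MG132 replicate 4). Of 20 aminoacyl-tRNA synthetases CARS1 alone rose, 2.00-fold, and lost its call without G2 replicate 1 or 4 (highest adjusted p 0.0556), and 17 of the 20 had positive fold changes (median 0.32).

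The C/EBP-ATF response element, the composite site that ATF4 binds with C/EBP partners, was searched as TGATGNAA on both strands, which reads TTNCATCA when the site is reversed. It was in the window of 11 of 125 called-higher genes (8.80%), against 1.76% of tested genes, 3.67% of all promoters and 2.48% of the called-lower genes. The 11 were ASNS, ATF3, CARS1, CHAC1, FGF21, FUT1, HERPUD1, IL21R, NLRP12, PLK3 and SLC7A1. The stretches around 6 of the matches that lie before the start are shown beside the gene values above and below, in the same form. CHAC1 is at chr15:40953242-40953289, FGF21 at chr19:48755450-48755497, ATF3 at chr1:212565196-212565243, HERPUD1 at chr16:56931946-56931993 and PLK3 at chr1:44800224-44800271, all on the plus strand, and ASNS at chr7:97872449-97872496 on the minus strand. In the order printed, the matches end 201, 46, 168, 183, 60 and 125 bases before the start.
CHAC1: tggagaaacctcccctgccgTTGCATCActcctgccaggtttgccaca
FGF21: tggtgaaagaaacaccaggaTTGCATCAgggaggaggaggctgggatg
HERPUD1: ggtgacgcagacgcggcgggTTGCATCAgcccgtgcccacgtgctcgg
ATF3: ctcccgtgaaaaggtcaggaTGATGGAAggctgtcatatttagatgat
ASNS: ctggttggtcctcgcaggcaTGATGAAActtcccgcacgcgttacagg
PLK3: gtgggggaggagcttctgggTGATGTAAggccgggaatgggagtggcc
CHAC1, FGF21 and HERPUD1 hold the identical reversed match and the other 3 differ at the free base. The element was also in 6 of 16 aminoacyl-tRNA synthetase promoters (37.5%), of which only CARS1 was called. The antioxidant element TGACNNNGC was in 16.8% of called-higher and 15.1% of tested promoters, and the AP-1 site TGANTCA in 10.4% and 4.75%. Over all promoters in the table the shares were 13.6% for the antioxidant element and 7.76% for the AP-1 site. The TCF/LEF site ATCAAAG was in 1.60% of called-higher and 0 of the 121 called-lower promoters, beside 1.43% of tested and 2.64% of all promoters. The table held promoters for 8 of the 15 tested Wnt targets, and 1 of these, that of SP5, had the site. AXIN2 had no promoter in the table, so it could not be searched.

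Of the NRF2 targets 3 of 23 rose and 0 fell (median 0.34). HMOX1, haem oxygenase 1, went from 17.5, 42.0, 19.5 and 19.8 CPM to 291, 232, 625 and 600 CPM, with no overlap (adjusted p = 8.75e-07 for a log2 fold change of 4.15, SE 0.37). OSGIN1, an oxidative stress gene, went from 11.5 to 17.6 CPM to 132, 69.1, 151 and 179 CPM (log2 fold change 3.21, SE 0.26, adjusted p = 2.17e-07). SRXN1, sulfiredoxin, rose 2.64-fold, and its counts were close to those of ENSG00000270299.1, an overlapping entry on chromosome 20, so that reads of the pair cannot be assigned. GCLM, a subunit of the enzyme that starts glutathione synthesis, was at 46.1 to 55.1 CPM and then 97.1, 102, 109 and 46.7 CPM (adjusted p = 0.165, and 0.0205 without MG132 replicate 4). Without that library 8 of the 23 targets were higher, and without the 4 libraries skewed with GC content 7 were. MAFF, a small Maf partner of NRF2, rose 3.16-fold and was the only one of 11 regulators called (median 0.07).

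Of 21 genes of the endoplasmic reticulum (ER) chaperones and of ER-associated degradation, 3 rose and 0 fell (median 0.23). HERPUD1, a membrane component of ER-associated degradation, rose from 34.1 to 62.6 CPM to 163 to 204 CPM, a log2 fold change of 1.99 (SE 0.25, adjusted p = 8.69e-05). HSPA5, the ER HSP70 BiP, rose 1.71-fold and XBP1, a factor of the unfolded protein response, 2.16-fold. HSPA5 lost its call without G2 replicate 2, 3 or 4 or MG132 replicate 1 or 3 and XBP1 without G2 replicate 2, 3 or 4 or MG132 replicate 2 or 3, with highest adjusted p of 0.0908 and 0.115.

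AP-1 and the other immediate early factors split. JUN, the AP-1 subunit induced by stress kinases, went from 6.91, 5.38, 5.43 and 8.23 CPM to 167, 66.9, 193 and 235 CPM (log2 fold change 4.67, SE 0.42, adjusted p = 8.51e-07). FOS, its partner, rose 3.15-fold to 23.6 to 38.6 CPM and lost its call without G2 replicate 2 or 4 (highest adjusted p 0.0748), and NR4A1, an orphan nuclear receptor, rose 2.21-fold. JUNB, the AP-1 subunit that can oppose JUN, fell from 33.7 to 54.0 CPM to 13.5, 12.6, 18.0 and 24.9 CPM (adjusted p = 0.0276) and lost its call without G2 replicate 1 or 2 or MG132 replicate 1, 2 or 3 (highest adjusted p 0.108). EGR1, usually induced with FOS by growth factor signalling, was at 4.76 to 15.8 CPM and 9.53 to 16.5 CPM (adjusted p = 0.945). The list gave 3 higher and 1 lower of 16 (median 0.41).

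Feedback genes of the early response also went both ways, with 3 of 29 higher and 3 lower (median 0.05). DUSP1, a phosphatase that inactivates stress kinases, rose from 9.54 to 14.8 CPM to 54.3, 88.5, 56.8 and 66.2 CPM (log2 fold change 2.46, SE 0.28, adjusted p = 2.66e-05). IER5, a regulator of HSF1, rose 3.03-fold. BTG1, an antiproliferative gene, rose 2.39-fold and lost its call without G2 replicate 2, 3 or 4 or MG132 replicate 2 (highest adjusted p 0.118). SPRY1 and SPRY2, inhibitors of receptor tyrosine kinase signalling, fell by 1.57 and 1.10 on the log2 scale, and TOB1, a partner of the deadenylase complex, fell by 0.92. The SPRY2 call was lost without MG132 replicate 1 or 3 (highest adjusted p 0.0732). DUSP7, a phosphatase of ERK that was outside the list, fell from 19.1 to 26.5 CPM to 6.13 to 12.8 CPM. KLF2 was the only KLF factor called of 12 (median -0.33), falling from 10.6, 7.80, 6.81 and 9.34 CPM to 2.86, 2.37, 3.19 and 3.92 CPM (log2 fold change -1.48, SE 0.25, adjusted p = 0.00248). Of 10 genes for ligands and receptors of the EGFR family HBEGF rose 2.15-fold and AREG 2.77-fold, both ligands (median 0.41). AREG reached 1179 CPM in replicate 2 of MG132, beside 383 to 514 in the remaining 3, and lost its call without that library or without G2 replicate 2, 3 or 4 (highest adjusted p 0.129).

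Of 24 p53 targets 7 rose and 0 fell (median 0.42). GADD45A and GADD45B, which activate stress kinases and act in growth arrest, rose 5.89-fold and 4.06-fold, GADD45A from 9.42 to 13.4 CPM to 54.9, 75.1, 62.8 and 81.0 CPM (adjusted p = 4.74e-07). CDKN1A, the cyclin-dependent kinase inhibitor p21, rose from 156, 123, 96.8 and 108 CPM to 271, 294, 294 and 524 CPM (log2 fold change 1.52, SE 0.28, adjusted p = 0.00479). PLK3, a stress kinase, and TNFRSF10B, the death receptor DR5, rose 2.92-fold and 2.24-fold. AEN and PHLDA3, genes of apoptosis and of AKT inhibition, rose 1.91-fold and 1.76-fold. AEN lost its call without G2 replicate 1 or 3 and PHLDA3 without any single library but MG132 replicate 2, with highest adjusted p of 0.0530 and 0.131. MDM2, the ligase that degrades p53, was at 116 to 242 CPM in G2 and at 338, 313, 321 and 53.6 CPM in MG132, with replicate 4 lowest of all 8 (adjusted p = 0.830). PMAIP1, which encodes the proapoptotic NOXA, was at 44.2 to 101 CPM and then 135, 362, 184 and 34.5 CPM (adjusted p = 0.116, and 0.00548 without MG132 replicate 4). Neither the 14 BCL2 family genes (0 called, median 0.06) nor the 18 NF-kB targets (0 called, median -0.10) passed the test. At an unadjusted p under 0.05 there were 2 higher and 0 lower, and 1 higher and 2 lower, and DESeq2 called 1 higher in each list.

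All 22 sterol synthesis and uptake genes had positive fold changes (median 0.93, range 0.10 to 2.42), but only 1 was called. HMGCS1, an early enzyme of the pathway, was at 46.9 to 123 CPM and then 411, 1017, 290 and 83.0 CPM (adjusted p = 0.0536), and INSIG1, which retains the sterol sensor SCAP, at 20.1 to 60.1 CPM and then 165, 413, 101 and 139 CPM (adjusted p = 0.0543). For HMGCS1 replicate 2 was highest and replicate 4 fell inside the G2 range. Without MG132 replicate 4 the count was 6, with HMGCS1 at adjusted p = 0.0079 and INSIG1 at 0.0362, and without the 4 GC-skewed libraries it was 0 with a median of 0.46. With the GC and length offset 3 were called higher, HMGCS1 and INSIG1 among them, at a median of 0.83, and with a term for the code letter 3 at a median of 0.78.

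The plot of MG132 replicate 4 against transcript GC content covers 118 genes named here. Of 27 with a GC content under 45%, 24 were lower in replicate 4 than in the mean of replicates 1 to 3, with a median log2 ratio of -1.21. Of 91 at 45% or more, 72 were higher in replicate 4, with a median of 0.47. DNAJB4, HSPH1, CLK1, DNAJA1, HSP90AA1 and MDM2 are among the genes furthest below. The same library therefore lies low for GC-poor members of the chaperone, p53 and sterol lists while it lies high for HSPA1A, HSPA1B, DNAJB1, SESN2 and DDIT4.

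**Figure D3:**
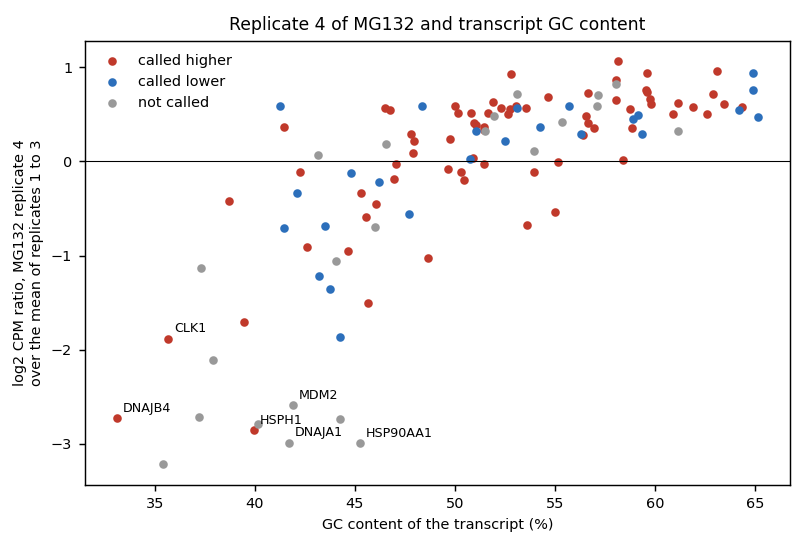
Each point is 1 of 118 named genes, with the GC content of its transcript (%) on the x axis and the log2 ratio of its CPM in MG132 replicate 4 to the mean of replicates 1 to 3 on the y axis, coloured by call against G2. Of the 27 genes under 45% GC, 24 lie below 0, and of the 91 others 72 lie above it.

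Wnt targets had the largest share of lower calls among the lists plotted by share called. Of 15 tested 5 fell and 1 rose (median -0.35), and 2 of the 15 had positive fold changes. AXIN2 (chr17:65528563-65561647, minus strand), a negative regulator that β-catenin induces, was at 12.7, 25.8, 24.5 and 21.1 CPM in G2 and at 6.17, 2.53, 7.03 and 7.84 CPM in MG132. Every MG132 library lies below every G2 library (log2 fold change -1.83, SE 0.34, adjusted p = 0.00531). SOX4, a progenitor transcription factor, fell from 48.4, 54.1, 62.1 and 52.1 CPM to 22.1, 16.4, 22.1 and 20.6 CPM (log2 fold change -1.42, SE 0.21, adjusted p = 0.000754), and WNT16, a ligand, from 82.4 to 104 CPM to 25.8 to 47.3 CPM, a log2 fold change of -1.32 (SE 0.20, adjusted p = 0.000863). SOX9, a factor of the intestinal crypt, fell by 0.98 and DKK1, a secreted Wnt inhibitor, by 1.21 on the log2 scale. SOX9 lost its call without MG132 replicate 3 (adjusted p = 0.0621), and DKK1, whose groups overlap, without G2 replicate 1, 2 or 4 or MG132 replicate 1, 3 or 4 (highest adjusted p 0.121). BAMBI, a decoy receptor of TGF-β signalling, rose 2.05-fold and lost its call without G2 replicate 3 or 4 or MG132 replicate 3 (highest adjusted p 0.0571). Without the 4 GC-skewed libraries 5 Wnt targets were lower and 1 higher, with a term for the code letter 4 and 1, and within letter O 0 of 15 were called. With the 8 libraries alone 1 was lower, SOX4, and 0 were higher, and AXIN2, WNT16, SOX9, DKK1 and BAMBI lost their calls. FZD2, a Wnt receptor outside the list and chosen after its values were seen, fell from 7.64 to 11.4 CPM to 1.82 to 5.24 CPM (adjusted p = 0.00876).

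In the 16 genes of TGF-β and BMP feedback, TGIF1, a corepressor of SMAD complexes, fell from 89.3 to 114 CPM to 33.3, 30.0, 37.7 and 50.5 CPM (log2 fold change -1.35, SE 0.24, adjusted p = 0.00364). TGIF1 was not called with the GC and length offset (-1.18, adjusted p = 0.0764) or with the 8 libraries alone (-1.28, adjusted p = 0.0829), and over the 22 alternatives its adjusted p ran from 2.83e-05 to 0.850. SMAD6, an inhibitory SMAD, fell by 1.32 at adjusted p = 0.0492 and lost its call without any single library but MG132 replicate 4 (highest adjusted p 0.147). BAMBI counts here too, as the 1 higher gene (median 0.04). ID3, a BMP target, was at 21.8 to 44.3 CPM and then 58.5 to 107 CPM with no overlap, at adjusted p = 0.155.

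HOX genes set the positional identity of cells along the body axis. They were looked at after their values had been seen, so the following is a description. Of 29 tested 9 were called lower, among them HOXA6, HOXA11, HOXA13, HOXB4, HOXB6, HOXB7, HOXB8 and HOXC6, and 0 higher, and 28 had negative fold changes (median -0.85, beside -0.03 over all tested genes). HOXB4 was at 16.6, 14.5, 11.8 and 15.7 CPM in G2 and at 4.80, 6.80, 6.40 and 7.77 CPM in MG132 (log2 fold change -1.19, SE 0.21, adjusted p = 0.00403). HOXA13 was at 4.37 to 4.82 CPM and then 0.845 to 2.43 CPM. Without the 4 GC-skewed libraries 5 of 30 were lower (median -0.89), with a term for the code letter 2 of 29, and in the fit of the 8 libraries alone 0 of 28. HOXB6 lost its call without G2 replicate 3 or 4 or MG132 replicate 1, 2 or 3 (highest adjusted p 0.0994).

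Other protein-coding genes among the 20 lowest by the naming rule included HPS6 and MFSD5, genes of lysosome-related organelle assembly and of molybdate transport. HPS6 fell from 53.2 to 75.2 CPM to 22.5, 29.6, 23.8 and 37.1 CPM (log2 fold change -1.15, SE 0.22, adjusted p = 0.0062), and MFSD5 from 19.8 to 30.1 CPM to 7.87 to 10.7 CPM (adjusted p = 0.00251). PDE4B, a phosphodiesterase of cyclic AMP, fell from 68.9 to 91.0 CPM to 32.6, 46.8, 34.1 and 16.2 CPM. IMP3 and GEMIN6, which act in ribosome and spliceosome assembly, fell by 1.21 and 1.08 on the log2 scale. IMP3 lost its call without G2 replicate 1 or 2 or MG132 replicate 1 or 3 and GEMIN6 without any single library but G2 replicate 3 and MG132 replicate 2, with highest adjusted p of 0.0865 and 0.163. ARID5B, a chromatin factor chosen after its values were seen, was at 8.56, 7.72, 23.7 and 23.7 CPM and then 6.99, 3.64, 5.62 and 1.42 CPM (adjusted p = 0.0275), and lost its call without G2 replicate 3 or 4 or MG132 replicate 2 (highest adjusted p 0.0993). CDKN1B, the kinase inhibitor p27, fell from 30.1 to 35.3 CPM to 12.9 to 20.2 CPM (log2 fold change -0.89, adjusted p = 0.00847). It was the 1 lower gene of 26 in the G1/S and replication list, in which CDC6, a replication licensing factor, was the 1 higher (1.78-fold, call lost without G2 replicate 1, 3 or 4 or MG132 replicate 1 or 3, highest adjusted p 0.0753).

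The 204 genes called lower in the fit of all 20 libraries were short and often non-coding. Their median genomic span was 5.41 kb, beside 15.7 kb for the called-higher genes and 22.9 kb for all tested genes, and 29.7% had a single exon block, beside 14.9% of all tested genes. Among protein-coding genes alone the medians were 7.76, 17.0 and 32.9 kb. Long non-coding RNAs made up 35.8% of the lower calls, beside 14.5% of the tested genes. That share moved with the libraries used, and without the 4 GC-skewed libraries it was 14.9% of 121 lower calls, beside 15.7% of tested genes, while the median span was still 7.69 kb beside 21.5 kb. The lower calls also had a lower mean level (1.77 log2 CPM against 3.39 over all tested genes) and a higher GC content (54.1% against 48.7%). Genes named as divergent transcripts, also chosen after their values were seen, gave 15 lower and 1 higher of 277 (median -0.50) and genes named antisense 14 lower and 2 higher of 514 (median -0.40). These counts depended on the libraries and the fit. The divergent transcripts gave 3 lower and 0 higher of 304 without the 4 GC-skewed libraries (median -0.55), 4 lower and 1 higher with a term for the code letter, 0 of 236 with the 8 libraries alone, and 30 lower and 1 higher with the GC and length offset. The antisense genes gave 2 lower and 4 higher of 574 (median -0.39), 5 lower and 1 higher, 0 lower and 1 higher of 446, and 34 lower and 5 higher under the same settings in that order. The 1 higher divergent transcript was HSPA5-DT, beside HSPA5. How the counting used strand is not given in the sources used here, so antisense and divergent transcripts are uncertain.

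Among non-coding genes called higher, 2 of 42 began within 10 kb after the end of a called-higher protein-coding gene on the same strand (4.76%), beside 10 of 4942 tested non-coding genes (0.202%). ENSG00000245025.3 begins 798 bases after TNFRSF10B and ENSG00000259407.1 begins 9042 bases after KLHL25. ENSG00000285565.1 (chr6:31828834-31839719), also called higher, overlaps HSPA1B (chr6:31827735-31830255), so its reads cannot be told apart from those of HSPA1B. LUCAT1, a stress-responsive long non-coding RNA chosen after its values were seen, rose 3.23-fold. NEAT1, the scaffold RNA of paraspeckles, was at 24.3 to 73.0 CPM and then 159, 124, 114 and 63.6 CPM (adjusted p = 0.126, and 0.0384 without MG132 replicate 4). CLK1, a kinase of splicing factors, rose 2.65-fold with MG132 replicate 4 at 34.2 CPM inside the G2 range, and lost its call without any single library but that one (highest adjusted p 0.141). Among the 10 U2 small nuclear RNA copies at the top of the fold changes, RNU2-1 was at 9.59 CPM in MG132 replicate 3 and at 0 in the other 7 libraries, and none was called (adjusted p = 0.432).

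Some rises lay outside the lists, and of these TSC22D3 was named by rule and the others after their values were seen. CCN1, CCN2 and THBS1, which encode matricellular proteins often described as targets of the YAP coactivators, rose 2.72-fold, 4.31-fold and 3.19-fold. CCN1 lost its call without G2 replicate 2, 3 or 4 or MG132 replicate 1 or 2 (highest adjusted p 0.0978) and THBS1 without G2 replicate 1 (adjusted p = 0.0523). ULBP1 and MICB, stress ligands of the natural killer receptor NKG2D, rose 3.24-fold and 1.64-fold, and MICB lost its call without any single library but MG132 replicate 2 (highest adjusted p 0.139). TSC22D3, the glucocorticoid-induced leucine zipper, rose from 3.22 to 3.82 CPM to 24.8, 32.8, 25.7 and 52.9 CPM (log2 fold change 3.25, SE 0.37, adjusted p = 2.60e-05). IFRD1, a stress-induced coregulator, rose 3.50-fold.

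Several lists showed no call or next to none. None of 28 mitotic genes was called (median -0.11), with CCNB1, cyclin B1, at 487 to 754 CPM and 390 to 743 CPM and PLK1, a mitotic kinase, at 138 to 197 CPM and 108 to 196 CPM. AURKA, another mitotic kinase, was lower in every MG132 library (123 to 167 CPM against 191 to 238) but did not pass (adjusted p = 0.218). None of 15 clock genes (median 0.12), 6 metallothionein and zinc response genes (-0.20), 10 genes of P-TEFb and its inhibitors (0.18), 11 tubulins (-0.11), 19 snoRNA host and regulatory long non-coding RNAs (0.44), 13 mitochondrial mRNAs (0.25) or 56 replication-dependent histones (0.16) was called. At an unadjusted p under 0.05 there were 2 mitotic, 4 clock, 0 metallothionein, 3 P-TEFb, 1 tubulin, 6 snoRNA host, 0 mitochondrial and 5 histone genes. DESeq2 called 4 of the snoRNA host list and 1 histone higher. Of 83 cytosolic ribosomal protein genes only RPL3L, a muscle isoform, was higher (median 0.09), of 16 SR proteins and CLK kinases only CLK1, and of 354 genes named ZNF 4 were higher and 3 lower (median -0.03).

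**Figure D4:**
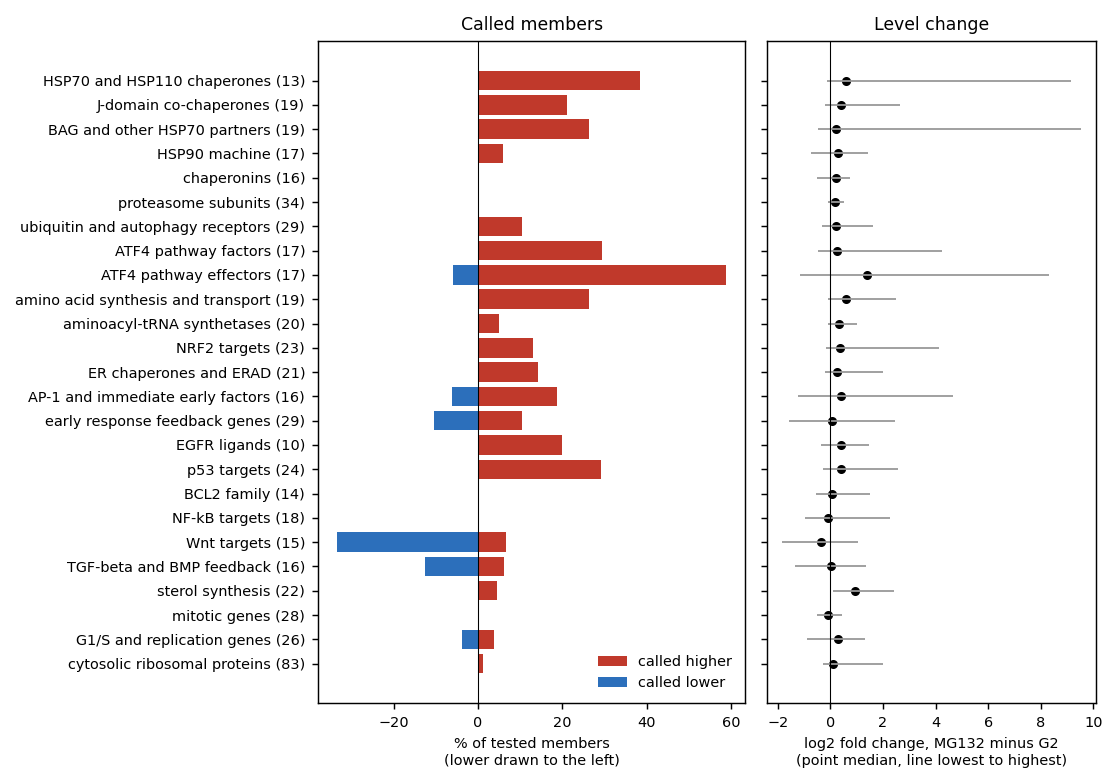
For each list, with the number of tested members in parentheses, the left panel shows the percentage called higher (red, to the right) and lower (blue, to the left) and the right panel the median log2 fold change, MG132 minus G2, with a line from the lowest to the highest member. The effectors of the ATF4 pathway have the largest share of rises (10 of 17) and Wnt targets the largest share of falls (5 of 15), beside 1.01% and 1.08% of all tested genes.

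No repeat subfamily was called. In edgeR's test 0 of 1076 passed in either direction (smallest adjusted p 0.437), 21 had an unadjusted p under 0.05 (14 higher, 7 lower), limma-voom called 0 and DESeq2 called 4 higher and 1 lower. The median log2 fold change was 0.17. LTR12C, a long terminal repeat of the HERV9 family of endogenous retroviruses, was at 178, 131, 138 and 170 CPM in G2 and 307, 257, 325 and 247 CPM in MG132, with no overlap (log2 fold change 0.88), and its internal part HERV9NC-int at 19.8 to 35.0 CPM and then 37.9 to 66.9 CPM (0.85). DESeq2 called both higher (adjusted p = 0.00177 and 0.0079). It adjusted genes and repeats together, after its own filtering, while the edgeR and limma-voom values were adjusted over repeats alone. The adjusted p of these tools are therefore not directly comparable. Over all repeats 1.12% had every MG132 library above every G2 library and 0.186% every MG132 library below. Alu subfamilies (47, median 0.34) and L1 subfamilies (126, median 0.20) had 0 calls, and single libraries stood out among them. FRAM, a monomer related to Alu, reached 1370 CPM in replicate 4 of MG132, while the remaining 7 libraries had 75.3 to 142. AluJr was at 16260 and 7674 CPM in G2 replicates 1 and 2 and at 1370 to 2262 in the other 6.

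The levels in the other groups place these changes beside bortezomib, a boronic acid inhibitor of the same proteasome site. Doses differ in kind (20 µM against 100 nM), so the values are set side by side and the test compares the 2 sets of libraries. The fit gave 7 genes higher with MG132 than with bortezomib (0.0369% of tested genes) and 0 lower, with 768 genes at an unadjusted p under 0.05. DESeq2 gave 19 higher and 0 lower. HSPA6 was at 11.0, 3.72, 9.32 and 4.74 CPM with bortezomib, between the G2 and MG132 libraries, and the log2 difference was 3.39 (SE 0.35, adjusted p = 9.66e-05). CRYAB was at 0.0740 to 0.237 CPM (log2 difference 4.31, adjusted p = 0.0132), ZFAND2A at 113, 110, 81.2 and 62.9 CPM (1.87, adjusted p = 0.0100) and SERPINH1 at 363 to 513 CPM (1.35, adjusted p = 0.0217).

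DUSP1 was at 20.3, 13.9, 18.6 and 17.4 CPM with bortezomib (log2 difference 1.92, SE 0.28, adjusted p = 0.00947) and NR4A1 at 13.9 to 17.6 CPM (1.27, adjusted p = 0.0470), beside G2 ranges of 9.54 to 14.8 and 16.1 to 18.6 CPM. With a term for the code letter 0 of the 7 passed (HSPA6 at adjusted p = 0.349), and bortezomib libraries carried the letters O, P, Q and W, so the letter and the drug can be separated only in part. HSPA6 passed in all 8 fits that left out 1 library of either drug, and without bortezomib replicate 3 or 4 it was the only one that did, at adjusted p = 0.000654 and 0.0014. Leaving out bortezomib replicate 1 or 2 or MG132 replicate 4 left 3, 3 and 4 calls. The highest adjusted p in these fits were 0.113 for CRYAB, 0.0998 for ZFAND2A, 0.187 for SERPINH1, 0.0796 for DUSP1 and 0.381 for NR4A1.

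Other stress genes were not called between the drugs. HSPA1B was at 1825 to 2925 CPM with bortezomib (log2 difference 0.97, SE 0.28, adjusted p = 0.779), CHAC1 at 37.4 to 50.2 CPM (0.98, SE 0.29, adjusted p = 0.872), HMOX1 at 149 to 213 CPM (1.26, SE 0.33, adjusted p = 0.617) and JUN at 50.0 to 79.3 CPM (1.27, SE 0.36, adjusted p = 0.779). For these 4 every bortezomib library lies below every MG132 library except for JUN, where 1 MG132 library lies within the bortezomib range. AXIN2 was at 7.36 to 12.4 CPM and WNT16 at 34.5 to 51.1 CPM with bortezomib, beside the MG132 ranges given above.

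With α-amanitin added to MG132, HSPA6 was at 1.65, 2.10, 0.945 and 1.85 CPM, HSPA1B at 380 to 698 CPM and CHAC1 at 4.67 to 9.06 CPM, all far below the MG132 libraries. HMOX1 was at 24.7 to 38.4 CPM and JUN at 11.1 to 27.4 CPM. AXIN2 stood at 6.57 to 12.7 CPM and WNT16 at 41.3 to 62.2 CPM, below the WNT16 range in G2. Asynchronous cells had HSPA6 at 0.0314 to 0.0982 CPM and WNT16 at 86.6 to 111 CPM, near the G2 values. Their HSPA1B levels, 250 to 724 CPM, reached both below and above the G2 range.

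**Figure D5:**
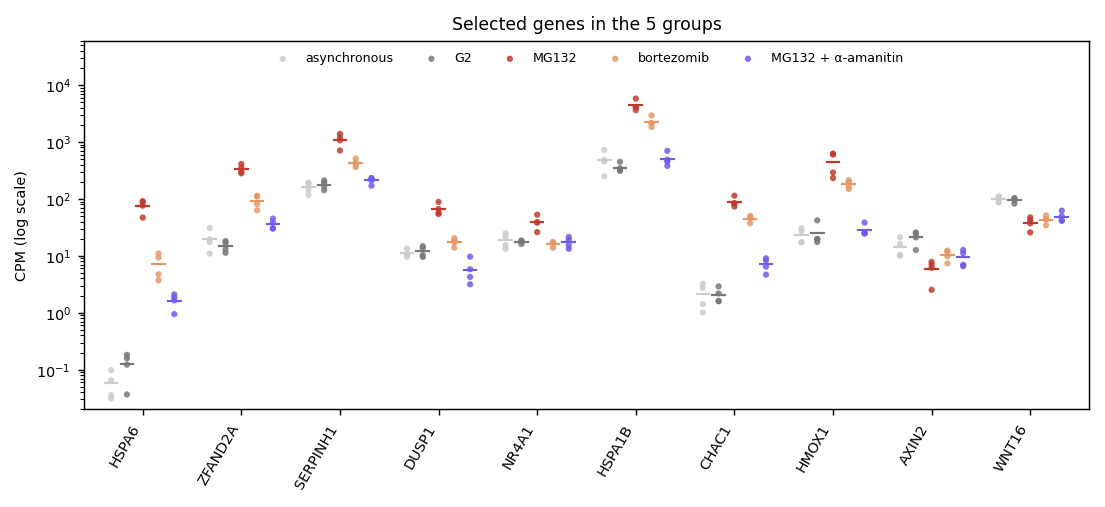
CPM on a log axis of 10 genes in the 5 groups, 4 points per group and a bar at the mean. HSPA6, ZFAND2A, SERPINH1, DUSP1 and NR4A1 are higher with MG132 than in every other group. For HSPA1B, CHAC1 and HMOX1 every MG132 library also lies above every bortezomib library, though none of them was called between the drugs. WNT16 is lower in the 3 drug groups than in the asynchronous and G2 groups.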

How the data were processed

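The authors deposited 1 table of raw read counts for 39918 genes and 1174 repeat subfamilies in 20 libraries. Per the submitters' processing notes, FastQC, cutadapt 1.18, STAR and build hg38 were used. For the counting tool, the annotation, the use of strand and reads with several matches, the choice is not given in the sources used here.

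Groups came from the labels. Counts were fitted in R 4.3.3 with edgeR 4.0.16 (robust quasi-likelihood test, default expression filter, TMM scaling, all 20 libraries, 1 mean per group, 15 residual degrees of freedom). Benjamini-Hochberg adjustment ran separately over 18959 genes and 1076 repeats, with calls at an adjusted p under 0.05. Only DESeq2 differed, as its own filtering and adjustment covered genes and repeats together. CPM were computed here from the deposited counts. Alternatives included other scalings and filters, DESeq2 1.42.0, limma-voom 3.58.1, blocks for replicate number and code letter, a GC and length offset, and leaving out libraries. The test was also run on simulated counts. Symbols were found for 39711 genes and GENCODE 29 positions for 38661. Promoters and their motifs are from RefSeq (GRCh38.p14).

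Named genes were the 20 highest and 20 lowest called protein-coding genes whose 2 groups do not overlap and whose average level reached 3 (log2 CPM), up to 5 members of each list by p with any called member, the 5 highest and lowest called non-coding genes, the leading bortezomib differences and a fixed set. The text gives those that carry the comparison, and says where a gene was chosen after its values were seen. Members and lists were chosen with earlier results of these data known. Results for some items are not reported here.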

Additional observations from a re-analysis of the deposited data

Results flagged for a closer look

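In 23 of 242 checks of a gene within a group of 4 libraries, the highest or lowest library lay further from its nearest neighbour than Dixon's 95% limit for 4 samples. Chance gives about 1 in 20 of such checks, and checks of genes in the same library are not independent. In G2 replicate 1, MAP1LC3B (60.8 CPM), DDIT4 (37.7), SPRY1 (2.35) and AREG (329) were high. In G2 replicate 2, FKBP4 (461 CPM), CARS1 (69.9), HMOX1 (42.0), SRXN1 (85.4), CDC6 (194), MFSD5 (30.1) and the histone gene H2BC12 (383) were high, and DNAJB4 (17.4) and HSP90AA1 (469) low. In MG132 replicate 2, PSAT1 (189 CPM), BTG1 (98.4), AREG (1179), DKK1 (237) and GEMIN6 (26.4) were high. In MG132 replicate 4, CARS1 (167 CPM), CDKN1A (524) and the repeat FRAM (1370) were high, and SPRY1 (0.541) and MDM2 (53.6) low. No library other than these 4 stood out in this check.

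In the fit of all 20 libraries, the test of the difference between the 2 inhibitors itself called 7 genes. With a term for the code letter 0 of the 7 passed, and without bortezomib replicate 3 or 4 only HSPA6 did. Bortezomib replicates 2 to 4 carried letters that no MG132 library had, so letter and drug can be separated only in part. For 6 of the 7 genes the log2 differences, MG132 minus bortezomib, are listed here. They were 3.39 for HSPA6, 4.31 for CRYAB, 1.92 for DUSP1, 1.87 for ZFAND2A, 1.35 for SERPINH1 and 1.27 for NR4A1.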

How the results depend on the processing

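Of the 96 named genes called between MG132 and G2, 0 changed sign under any alternative, and HSPA6, HSPA1B, DNAJB1, ZFAND2A, CHAC1, ATF3, DDIT3, SESN2, DDIT4, HMOX1, OSGIN1 and JUN were called under all 22. The counts moved more. Higher genes numbered 191, and 76 with mitochondrial mRNA scaling, 81 with the 8 libraries alone, 15 within letter O, 371 with the GC and length offset, 322 with that offset and the replicate block, and 327 with DESeq2. Leaving out 1 library gave 119 to 318. Lower genes numbered 204, and 132 with RLE scaling, 333 with total library size, 132 with mitochondrial scaling, 116 with no filter, 122 with the strict filter, 5 with the 8 libraries alone, 117 with the replicate block, 60 with the code letter block, 0 within letter O, 121 without the 4 GC-skewed libraries, 629 with the offset and 530 with the offset and the replicate block. Leaving out 1 library gave 74 to 355. The cause was not tested. Mitochondrial scaling and total library size moved the median log2 fold change of all genes from -0.03 to -0.29 and -0.15. Repeat calls were 0 in each direction. DESeq2, which adjusted genes and repeats together, gave 4 higher and 1 lower, and the code letter block gave 1 lower.

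The 7 genes higher with MG132 than with bortezomib became 3 with mitochondrial scaling, 3 with the replicate block, 0 with the code letter block and 19 with DESeq2, and 1 to 10 when 1 library was left out.

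Replicate numbers were shared by the groups. Same-numbered MG132 and G2 libraries correlated at -0.37, -0.45, 0.34 and -0.44 in their deviations from the group means. The highest correlation, 0.71, was between MG132 replicate 4 and G2 replicate 2, whose levels rose most steeply with GC content in their groups. The deviations were not corrected for GC content, so this check cannot decide whether the numbers pair the samples. With the replicate block 141 genes were higher and 117 lower, and 24 of the 96 named calls were lost. Among the MG132 libraries only replicate 3 correlated best with the G2 library of its own number. Depth of 27347163 to 39710457 counts leaves genes near 0 counts in a group, such as CRYAB and FGF21, with a lower bound only.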
